A study of Mus musculus with 6 samples.

Results

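The genes described here are 10 regulators of the first gap phase of the cell cycle: the D cyclins Ccnd1, Ccnd2 and Ccnd3, the E cyclins Ccne1 and Ccne2, the kinases Cdk4 and Cdk6, the kinase inhibitors Cdkn1a and Cdkn1b, and the retinoblastoma gene Rb1. They were chosen by symbol, and all 10 were found among the 19241 genes of the deposited expression table. These genes and the wider lists below were picked with earlier results of these data known. Their counts beside the shares of all tested genes are therefore descriptions and not tests. RNA of the whole interscapular brown adipose depot of newborn mice had been sequenced in bulk in 6 libraries. In 3 libraries, called WT in the titles, the labelled genotype is Fstl1-floxed, and in the other 3, called KO, it is Myf5-Fstl1 KO. Per the series title, the KO lacks Fstl1, which encodes a secreted glycoprotein, in the Myf5 lineage, and the labels do not spell out the Cre allele. Myf5 marks precursors of skeletal muscle and of much of the interscapular brown fat, so other cells of the depot keep the gene. Nothing in the labels says whether each library came from 1 animal or from a pool. The p-values therefore measure the spread between these libraries, which may be technical.

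In the textbook scheme, growth factors raise the D cyclins, which bind the kinases CDK4 and CDK6. These complexes, and later cyclin E with CDK2, phosphorylate the retinoblastoma protein and so release the E2F factors that switch on the genes of DNA synthesis. The inhibitors of the Cip/Kip family, encoded by Cdkn1a, Cdkn1b and Cdkn1c, hold cyclin E with CDK2 in check, and those of the INK4 family block CDK4 and CDK6. In newborn brown fat, precursors are still dividing while adipocytes leave the cell cycle and fill with lipid.

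Some features of the libraries bear on every comparison. Fstl1, the targeted gene, was at 55.5, 130.04 and 54.4 FPKM in the WT libraries, against 7.93, 13.1 and 8.77 in the KO libraries (log2 fold change −2.79, SE 0.33; adjusted p 0.00979 in limma). An FPKM value counts fragments by transcript length and by how many fragments the library mapped, and the values of a group are given in the order of replicates 1, 2 and 3. Xist and the Y-linked genes Eif2s3y, Ddx3y, Uty and Kdm5d separated the groups in every library. Xist averaged 67.5 FPKM in WT and 0.343 in KO, and Eif2s3y averaged 0.0267 and 92.2 FPKM. With Xist in the WT libraries and Y-linked transcripts in the KO libraries, genotype and sex, which the labels do not give, cannot be told apart in any comparison that follows. Whole-read steps among low values put the depth at 13850000 to 15000000 reads in each library. Of 13331 genes tested, 295 (2.21%) passed an adjusted p of 0.05 in limma, 1.01% of all tested genes lower and 1.21% higher in KO.

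Of the 10 genes, 2 passed that threshold, Ccnd1 and Ccnd2, and both fell in KO, against a background of 2.21% of all tested genes. The KO means of these D cyclins were 47.5% and 47.3% of the WT means. The third D cyclin, both kinases and Ccne1 also had lower KO means, and Ccne2, Cdkn1b, Cdkn1a and Rb1 had higher KO means, but none of these 8 passed. All 10 genes were above the filter on low values. Their fold changes were below 0 in 6 genes and above 0 in 4, with a median of −0.30 on the log2 scale, where the median of all tested genes was 0.01. At an unadjusted p of 0.05 there were 6 of the 10 (4 lower, 2 higher), against 19.2% of all tested genes (8.6% lower, 10.6% higher). The values of the WT and KO libraries did not overlap in 5 of the 10, lower in KO in Ccnd1 and Ccnd2 and higher in Ccne2, Cdkn1b and Rb1. Among all tested genes the groups did not overlap in 24.9% (11.4% lower, 13.6% higher). Fold changes were computed on log2(FPKM + 1), so they come out smaller than the ratio of FPKM, the more so at low levels. With a pseudocount of 0.1 that of Ccne2 was 1.03 in place of 0.85, and that of Ccnd2 was −1.06 in place of −0.96.

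**Figure D1:**
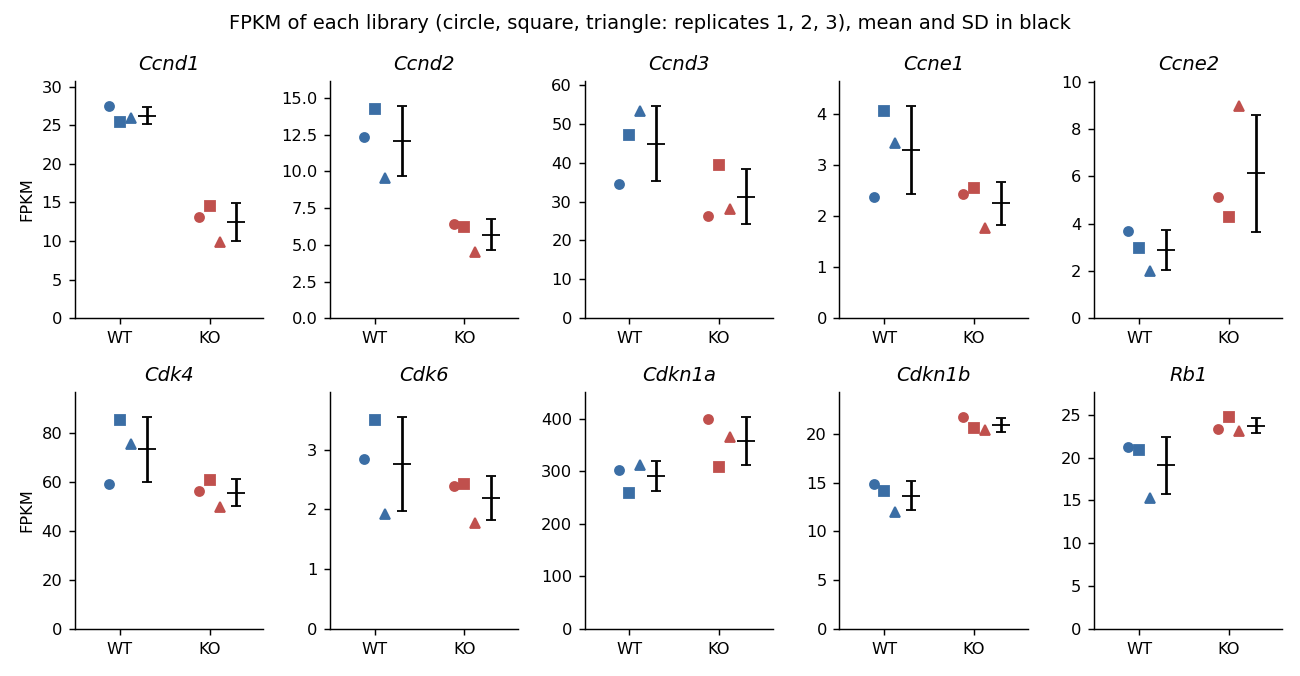
FPKM of the 10 genes (one panel each, vertical axis in FPKM from 0) in the 3 WT (blue) and 3 KO (red) libraries, with the group mean and SD (n = 3) in black. In Ccnd1 and Ccnd2 all KO libraries lie below all WT libraries, and in Ccne2, Cdkn1b and Rb1 all KO libraries lie above.

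Ccnd1 (Entrez gene 12443, chr7:144929931-144939831 in GRCm38, minus strand) encodes cyclin D1, the D cyclin best known as a sensor of growth factors. It was at 27.4, 25.4 and 25.9 FPKM in the WT libraries, against 13.1, 14.5 and 9.81 in the KO libraries. The WT libraries lay close together and the highest KO library was far below the lowest WT library. WT averaged 26.3 ± 1.04 FPKM and KO 12.5 ± 2.41 FPKM (SD, n = 3 each). The log2 fold change was −1.03 (SE 0.16, limma, adjusted p 0.0248). These values rested on an estimated 543 to 1473 reads per library. The fold change stayed between −1.14 and −0.88 over all 15 alternatives. With 1 library left out, Ccnd1 passed in limma without WT replicate 1 or KO replicate 2. Its adjusted p (limma) was 0.106 and 0.0925 without WT replicates 2 and 3, and 0.053 and 0.0526 without KO replicates 1 and 3.

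Ccnd2 (12444, chr6:127125162-127152188, minus strand) encodes cyclin D2, which pairs with the same kinases. It was at 12.3, 14.3 and 9.55 FPKM in the WT libraries, against 6.41, 6.18 and 4.51 in the KO libraries. Again the groups did not overlap, and replicate 3 was the lowest library in each group. WT averaged 12.1 ± 2.37 FPKM and KO 5.7 ± 1.04 FPKM (SD, n = 3 each). The log2 fold change was −0.96 (SE 0.19, limma, adjusted p 0.0423). The call was lost whichever library was left out, with adjusted p from 0.058 without WT replicate 1 to 0.175 without WT replicate 2 (limma), while the fold change stayed between −1.10 and −0.82.

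Ccnd3 (12445, chr17:47505051-47599689, plus strand) encodes cyclin D3 and was the most abundant D cyclin per length in every library. It was at 34.4, 47.0 and 53.2 FPKM in the WT libraries, against 26.4, 39.5 and 28.0 in the KO libraries. KO replicate 2 lay above WT replicate 1, so the groups overlapped. The KO mean was 69.7% of the WT mean, and the log2 fold change of −0.51 (95% interval −0.98 to −0.03) did not pass (limma, adjusted p 0.235).

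Added together, the D cyclins came to 74.2, 86.7 and 88.7 FPKM in WT and to 45.8, 60.2 and 42.3 FPKM in KO. The lowest WT library exceeded the highest KO library. WT averaged 83.2 ± 7.85 and KO 49.4 ± 9.45 FPKM (SD, n = 3 each), which puts the KO sum at 59.4% of WT. An exact two-sided permutation test gave p 0.1, the smallest that 3 against 3 can reach (0.167 adjusted over 5 sums and shares). The share of Ccnd1 in this sum does not depend on how libraries are scaled. It was 37.0%, 29.3% and 29.2% in WT and 28.5%, 24.1% and 23.2% in KO (exact permutation test, p 0.1, adjusted 0.167). WT replicate 1 set much of this difference: without it the KO mean minus the WT mean was −4.01 percentage points, against −6.58 with all libraries. The ratio of Ccnd1 to Ccnd2 ran from 1.78 to 2.71 in WT and from 2.04 to 2.35 in KO, so the KO values lay within the WT range. Of 10 brown adipocyte markers, 6 had fold changes below 0 and 4 above 0 in the same libraries. The 2 that passed in limma, Elovl3 and Plin1, were at 17.6% and 37.9% of their WT means. The part of this in the D cyclin values was not tested.

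**Figure D2:**
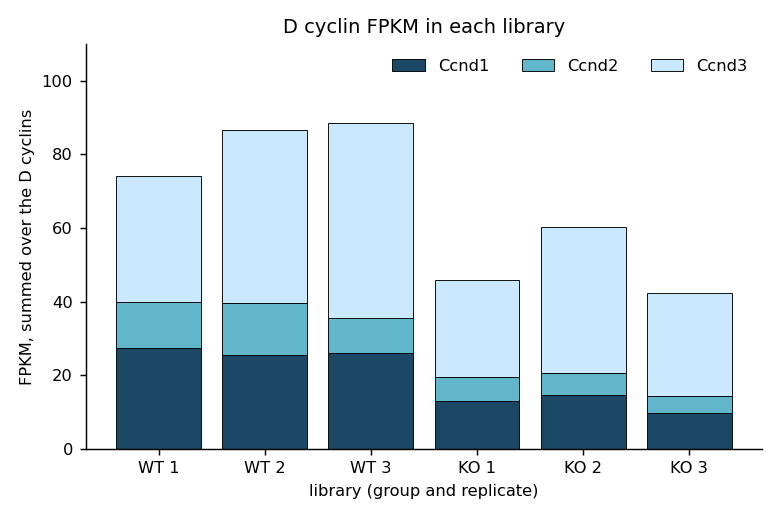
FPKM of Ccnd1, Ccnd2 and Ccnd3 stacked for each library (vertical axis in summed FPKM from 0, horizontal axis the 6 libraries). The WT sums lie between 74.2 and 88.7 FPKM and the KO sums between 42.3 and 60.2 FPKM, with Ccnd3 the largest part of each bar.

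Cdk4 (12567, chr10:127063535-127067288, plus strand) encodes the main kinase partner of the D cyclins. It was at 59.2, 85.2 and 75.3 FPKM in the WT libraries, against 56.4, 60.7 and 49.7 in the KO libraries. KO replicate 2 lay above WT replicate 1. The KO mean was 75.9% of the WT mean, and the log2 fold change of −0.38 (95% interval −0.76 to −0.0006) did not pass (limma, adjusted p 0.26). Cdk6 (12571, chr5:3341004-3531008, plus strand), the other kinase that binds D cyclins, was at 2.84, 3.5 and 1.93 FPKM in the WT libraries, against 2.4, 2.42 and 1.77 in the KO libraries. The groups overlapped, and the log2 fold change was −0.22 (95% interval −0.65 to 0.22; limma, adjusted p 0.574). Single libraries moved it, to −0.08 and −0.39 when WT replicates 2 and 3 were left out in turn, and to −0.12 when KO replicate 3 was. Per length, Cdk4 exceeded Cdk6 in every library, by 20.8 to 39.0 times in WT and 23.5 to 28.1 times in KO. Cdk6 made up 3.67% ± 1.07 of the summed FPKM of the pair in WT and 3.79% ± 0.326 in KO (SD, n = 3; exact permutation test, p 0.9).

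RefSeq promoter entries (GRCm38.p6) were matched for 6 of the 10 genes, and 250 bases before the transcription start are shown for 2 of them: Cdk4, for its repeated E-boxes, and Cdkn1b, the inhibitor whose groups did not overlap. No entry was matched for Ccnd1, Ccnd2, Ccne2 and Rb1, so the motif search does not cover the 2 genes that passed the threshold. Capitals mark matches of CACGTG, the E-box bound by MYC and related factors, of CCAAT, of the forkhead motif TGTTTAC, and of the E2F motifs TTTGGCGC, TTTCCCGC, TTTCGCGC and TTTGCCGC, each searched on both strands. The GC box GGGCGG was searched too and is not capitalised. The windows are chr10:127063285-127063534 for Cdk4 and chr6:134920151-134920400 for Cdkn1b, both on the plus strand, written 5′ to 3′.
Cdk4: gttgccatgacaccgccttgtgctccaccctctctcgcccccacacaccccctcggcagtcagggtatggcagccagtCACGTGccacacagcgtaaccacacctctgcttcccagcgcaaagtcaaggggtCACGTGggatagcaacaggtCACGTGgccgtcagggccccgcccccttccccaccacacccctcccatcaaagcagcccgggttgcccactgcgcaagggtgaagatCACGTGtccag
Cdkn1b: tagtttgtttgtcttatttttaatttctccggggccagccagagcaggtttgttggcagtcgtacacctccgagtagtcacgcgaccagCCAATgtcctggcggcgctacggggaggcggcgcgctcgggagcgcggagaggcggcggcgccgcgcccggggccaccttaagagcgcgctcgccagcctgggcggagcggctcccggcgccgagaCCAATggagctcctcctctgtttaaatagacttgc
The Cdk4 window holds 4 matches of CACGTG, which begin 172, 118, 98 and 11 bases before the start. At least 1 such match was present in 6.02% of the 32851 promoter windows of this length, and at least 4 were present in 7 of them. The cut of 4 is the count of Cdk4 itself, which was picked for it, so this rarity is no test. The Cdkn1b window holds 2 matches of CCAAT, which begin 161 and 35 bases before the start, and 1 of the GC box. CCAAT was found in 33.8% of all windows, GGGCGG in 32.7%, the forkhead motif in 3.17% and the E2F motifs in 1.86%. Of the matched genes, Cdk6 also holds 1 E-box and Ccnd3 1 forkhead motif, and no E2F motif in these letters lies in the windows of the 6 genes. The GC box also lies in windows of Cdk4, Ccne1, Cdkn1a and Ccnd3, and CCAAT also lies in a window of Ccnd3. A match is a description of the letters and not a measured binding site.

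Ccne1 (12447, chr7:38097984-38107490, minus strand) and Ccne2 (12448, chr4:11190433-11204779, plus strand) encode the E cyclins, which activate CDK2 at the entry into DNA synthesis. The KO means differed from WT in opposite directions, and neither passed the threshold. Ccne1 was at 2.38, 4.07 and 3.44 FPKM in the WT libraries, against 2.43, 2.55 and 1.77 in the KO libraries, with a log2 fold change of −0.39 (95% interval −0.82 to 0.04; limma, adjusted p 0.307). Ccne2 was at 3.69, 2.96 and 1.98 FPKM in the WT libraries, against 5.12, 4.28 and 8.95 in the KO libraries, where KO replicate 3 stood highest. All KO libraries were above all WT libraries in Ccne2, and its KO mean was 213% of the WT mean. Its log2 fold change was 0.85 (95% interval 0.26 to 1.44; limma, adjusted p 0.127), and it was 0.58 without KO replicate 3. Ccne2 made up 60.8%, 42.1% and 36.5% of the summed E cyclin FPKM in WT and 67.8%, 62.7% and 83.5% in KO (exact permutation test, p 0.1, adjusted 0.167). At these low levels Ccne1 rested on an estimated 52 to 119 reads per library and Ccne2 on 84 to 384.

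Cdkn1b (12576, chr6:134920401-134925525, plus strand) encodes p27, an inhibitor that accumulates in resting cells. It was at 14.9, 14.2 and 12.0 FPKM in the WT libraries, against 21.7, 20.6 and 20.4 in the KO libraries. The KO libraries lay close together and above every WT library. WT averaged 13.7 ± 1.52 FPKM and KO 20.9 ± 0.722 FPKM (SD, n = 3 each), which puts KO at 153% of WT. The log2 fold change of 0.58 (SE 0.14, 95% interval 0.27 to 0.90) did not pass over all genes (limma, adjusted p 0.0676). It passed in none of the 15 alternatives, with adjusted p from 0.0517 to 0.219, and the fold change stayed between 0.50 and 0.64. The ratio of Ccnd1 to Cdkn1b was 1.84, 1.80 and 2.16 in WT and 0.601, 0.704 and 0.482 in KO, so per length Ccnd1 was above Cdkn1b in each WT library and below it in each KO library.

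Cdkn1a (12575, chr17:29090979-29100722, plus strand) encodes p21, an inhibitor known as a target of p53 and as a gene that stays on in differentiated cells. It was by far the most abundant of the 10, above 98.4% of all listed genes by its WT mean. It was at 302, 258 and 311 FPKM in the WT libraries, against 399, 308 and 365 in the KO libraries. KO replicate 2 lay between the WT libraries. The KO mean was 123% of WT, with a log2 fold change of 0.29 (95% interval −0.05 to 0.64; limma, adjusted p 0.334). Per length, Cdkn1a exceeded Cdk4 by 3.03 to 5.11 times in WT and by 5.08 to 7.33 times in KO. Cdkn1a made up 95.5% ± 0.761 of the summed FPKM of the 2 inhibitors in WT and 94.4% ± 0.606 in KO (SD, n = 3; exact permutation test, p 0.2, adjusted 0.25).

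Rb1 (19645, chr14:73192858-73325951, minus strand) encodes the retinoblastoma protein, the substrate that these kinases share. It was at 21.2, 20.9 and 15.3 FPKM in the WT libraries, against 23.3, 24.7 and 23.1 in the KO libraries. Every KO library was above every WT library, WT replicate 3 stood lowest, and the KO mean was 124% of WT. The log2 fold change was 0.31 (95% interval −0.05 to 0.67; limma, adjusted p 0.33), and it was 0.17 without WT replicate 3.

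**Figure D3:**
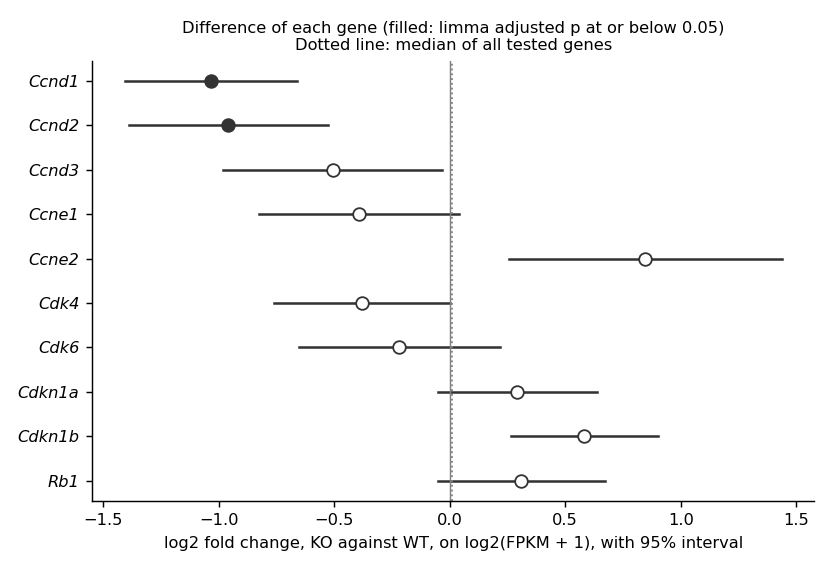
Log2 fold change of KO against WT (horizontal axis, on log2(FPKM + 1)) with its 95% interval for the 10 genes, filled where limma's adjusted p was at or below 0.05. Ccnd1 (−1.03) and Ccnd2 (−0.96) are filled, and the intervals of Ccne2 and Cdkn1b and, more narrowly, of Ccnd3 and Cdk4, which did not pass after adjustment, also lie off 0.

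In order of mean FPKM, the WT libraries ran Cdkn1a, Cdk4, Ccnd3, Ccnd1, Rb1, Cdkn1b, Ccnd2, Ccne1, Ccne2 and Cdk6. Neighbours in this order did not overlap between libraries except Cdkn1b with Ccnd2, Ccne1 with Ccne2, and Ccne2 with Cdk6. In KO the order was Cdkn1a, Cdk4, Ccnd3, Rb1, Cdkn1b, Ccnd1, Ccne2, Ccnd2, Ccne1 and Cdk6, where Ccne2 overlapped Ccnd2 and Ccne1 overlapped Cdk6. Ccnd1 thus stood in place 4 in WT, above Rb1 and Cdkn1b, and in place 6 in KO, below both.

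Strand handling is not given in the sources used here, and 8 of the 10 genes share exon sequence with a gene on the opposite strand in GENCODE vM21. Reads of such pairs cannot be told apart if strand was ignored. Opposite Ccnd2 lies 9330179D12Rik, which was at most 0.75 FPKM in any library. Oraov1, which overlaps Ccnd1 and is named LTO1 in GENCODE, averaged 4.80 FPKM in WT and 5.55 in KO (limma, log2 fold change 0.19, adjusted p 0.643). Tspan31, which overlaps Cdk4, averaged 53.1 and 44.8 FPKM (limma, −0.24, adjusted p 0.424). Bysl, which overlaps Ccnd3, averaged 13.8 and 9.0 FPKM without overlap between the groups (limma, −0.56, adjusted p 0.0626). Ints8, which overlaps Ccne2, averaged 10.01 and 11.4 FPKM (limma, 0.18, adjusted p 0.602). Lpar6 (0.44, adjusted p 0.288) and Rcbtb2 (−0.15, adjusted p 0.623) overlap Rb1 and did not pass in limma.

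The wider set of regulators of this transition held 36 genes, of which 33 were tested. Of these, 1 passed over all genes, lower in KO, where 2.21% of all tested genes passed and 1.01% were lower, so the count lies near the background. At an unadjusted p of 0.05 there were 15 (10 lower, 5 higher), against 8.6% lower and 10.6% higher among all tested genes. The median log2 fold change was −0.09, against 0.01 for all tested genes. The gene that passed was E2f1, which encodes an activating E2F factor. It was at 4.27, 5.37 and 5.05 FPKM in the WT libraries, against 2.75, 2.62 and 2.19 in the KO libraries (log2 fold change −0.74, SE 0.15; adjusted p 0.0435 in limma). It lost the threshold when any library other than WT replicate 1 was left out, with adjusted p from 0.0906 without KO replicate 2 to 0.182 without WT replicate 2 (limma). Cdc25a and E2f2, next by p-value, are named beyond the rule for naming genes. Cdc25a, the phosphatase that activates CDK2, averaged 16.7 and 6.76 FPKM without overlap between the groups and just missed the threshold (limma, −1.22, adjusted p 0.0519). E2f2, another activating factor, averaged 7.94 and 3.49 FPKM, also without overlap (limma, −0.997, adjusted p 0.0917).

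The nearest relatives of the 10 genes were taken as families, also beyond that rule. Of the pocket proteins related to Rb1, Rbl2 was at 8.21, 6.91 and 7.32 FPKM in the WT libraries, against 11.2, 10.1 and 12.5 in the KO libraries (limma, 0.53, adjusted p 0.0985), and Rbl1 had a log2 fold change of 0.02 (limma, adjusted p 0.976). Of the INK4 inhibitors, Cdkn2c averaged 29.6 and 15.3 FPKM, lower in every KO library than in any WT library (limma, −0.97, adjusted p 0.103). Cdkn2d (−0.13, adjusted p 0.736) and Cdkn2b (−0.45, adjusted p 0.325) did not pass in limma, and Cdkn2b exceeded 1 FPKM in WT replicate 2 alone. Cdkn1c, the third Cip/Kip gene, was at 57.3, 95.1 and 67.0 FPKM in the WT libraries, against 50.3, 76.2 and 60.9 in the KO libraries (limma, −0.21, adjusted p 0.644). Cdk2, the partner of the E cyclins, had a log2 fold change of 0.09 (limma, adjusted p 0.798).

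Genes of DNA replication and mitosis did not pass the threshold. Of 42 listed genes 40 were tested, 28 had lower and 12 higher KO means, and the median was −0.15. In limma 0 of the 40 passed, while 6 were at an unadjusted p of 0.05 or less (5 lower, 1 higher). Among all tested genes 2.21% passed and 19.2% were at an unadjusted p of 0.05 (8.6% lower, 10.6% higher). Neither total exceeds the background, while the share of lower genes at that p is above 8.6%. The groups did not overlap in 7 genes lower and 3 higher in KO, against 11.4% and 13.6% of all tested genes. Those with the lowest p were Mcm7, a helicase subunit, at 12.6 and 21.4 FPKM (limma, 0.71, adjusted p 0.0625), Rrm1, a ribonucleotide reductase subunit (−0.52, adjusted p 0.108), and Tpx2, a spindle factor (−0.50, adjusted p 0.124).

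Of the p53 pathway list, 18 of 22 genes were tested, and 3 rose and 1 fell over all genes, against 1.21% higher and 1.01% lower among all genes tested. Fas, a death receptor gene, averaged 8.52 FPKM in WT and 25.8 FPKM in KO (limma, 1.47, adjusted p 0.0223), and Sesn1 rose from 9.73 to 22.4 FPKM (1.09, adjusted p 0.0391). Trp53inp1 rose, at 5.48, 6.54 and 3.44 FPKM in the WT libraries, against 29.6, 22.8 and 153 in the KO libraries (limma, 3.01, adjusted p 0.0423), with KO replicate 3 far above the other libraries. Without that library its log2 fold change was 2.17 (limma, adjusted p 0.0115). Phlda3, also a p53 target, fell from 41.3 to 10.9 FPKM (limma, −1.97, adjusted p 0.0423). Each of these calls was lost without single libraries (limma): Fas without WT replicates 2 and 3 or KO replicates 1 and 3, with adjusted p from 0.0519 to 0.0925, and Sesn1 when any library other than WT replicate 1 was left out, from 0.0579 to 0.136. Trp53inp1 was lost when any of the WT libraries or KO replicate 1 was left out (0.0543 to 0.138), and Phlda3 without WT replicates 2 and 3 or KO replicate 2 (0.0765 to 0.168). The median of the list was 0.07, and its genes past the threshold lay on both sides of 0.

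D cyclin genes are known to respond to ERK and Wnt signals, and 14 of 21 genes listed as feedback or target genes of these pathways were tested. Fold changes were below 0 in 11 of these and above 0 in 3 (Tcf7, Spry1 and Jun), with a median of −0.23. In limma 2 fell and 0 rose over all genes, and at an unadjusted p of 0.05 there were 7 lower and 0 higher. Among all genes tested, 1.01% were called lower and 1.21% higher, and 8.6% and 10.6% were lower and higher at an unadjusted p of 0.05. Spry4, a feedback inhibitor of receptor tyrosine kinase signalling, was at 31.5, 17.8 and 22.2 FPKM in the WT libraries, against 8.14, 6.41 and 5.09 in the KO libraries (limma, −1.70, SE 0.23, adjusted p 0.0151). Axin2, a feedback inhibitor of Wnt signalling, was at 2.62, 4.81 and 2.74 FPKM in the WT libraries, against 1.26, 1.15 and 1.05 in the KO libraries (limma, −0.99, adjusted p 0.0427). Spry4 lost the threshold without WT replicate 3 (limma, adjusted p 0.0692), and Axin2 when any library other than WT replicate 1 was left out (0.0913 to 0.134). Dusp6, an ERK phosphatase named beyond the rule as next by p-value, averaged 27.7 and 12.6 FPKM without overlap (limma, −1.06, adjusted p 0.0625). A link of these genes to the D cyclin values was not tested.

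**Figure D4:**
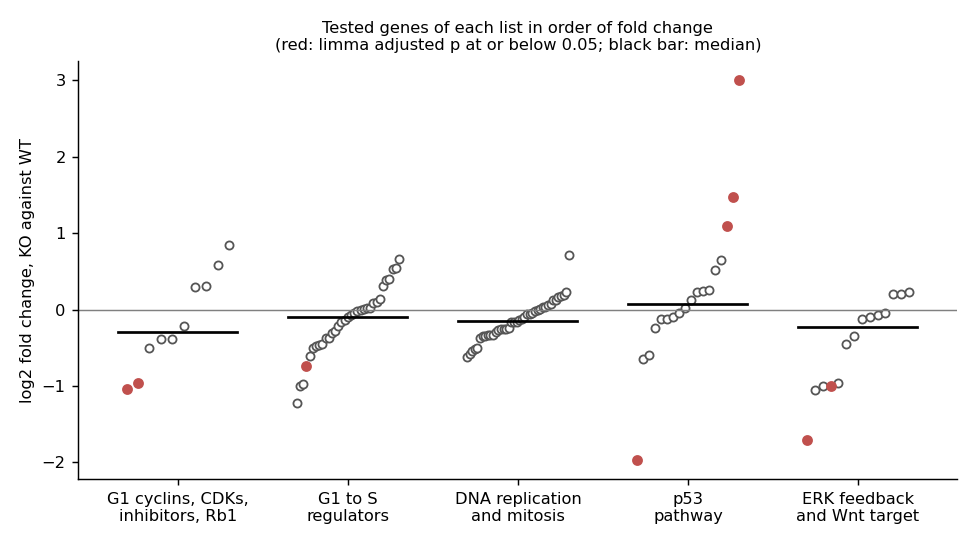
Log2 fold change of KO against WT (vertical axis) for every tested gene of the 10 regulators and of the 4 wider lists (horizontal axis), in order of fold change within each list, with the median as a black bar and genes past limma's threshold in red. Red points are 2 of the 10 regulators, 1 of 33 G1 to S regulators, 4 of 18 p53 pathway genes and 2 of 14 ERK feedback and Wnt target genes.

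By the correlation of log2(FPKM + 1) over the 6 libraries, the tested genes most like Ccnd1 were Adgra3 (r = 0.998), Stambpl1 (0.994) and Abhd17c (0.993). The 6 points fall in 2 groups that they share across these genes, and no p is given. Adgra3 was at 8.43, 8.04 and 8.08 FPKM in the WT libraries, against 6.28, 6.48 and 5.71 in the KO libraries.

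In bulk RNA, fewer cells of a type and less RNA per cell cannot be told apart, which holds for each of these genes. Marker lists of 10 genes each were summed per library, over the 9 genes in the table for myogenic precursors and for epidermis. Brown adipocyte markers summed to 21298 to 26696 FPKM in WT and 20332 to 22265 in KO, a sum made up mostly of Fabp4, which averaged 15810 and 15037 FPKM. Fold changes were below 0 in 6 of these markers and above 0 in 4. In limma 2 were called lower and 0 higher. These were Elovl3 at 17.6% and Plin1 at 37.9% of the WT mean (limma, adjusted p 0.0151 and 0.0267). At an unadjusted p of 0.05 there were 3 lower and 1 higher, Ppargc1a at 147% of its WT mean. Among all tested genes 1.01% were called lower and 1.21% higher. At an unadjusted p of 0.05, 8.6% of all tested genes were lower and 10.6% higher. Ucp1 was at 48.9% of its WT mean without overlap between the groups (limma, adjusted p 0.0804). Markers of adipose precursors and fibroblasts summed to 1259 to 1612 FPKM in WT and 1341 to 2218 in KO, with fold changes above 0 in 8 of 10. Of these, Ly6a passed, at 200.1% of its WT mean (limma, adjusted p 0.0332). Skeletal muscle markers summed to 1216 to 1765 FPKM in WT and to 303 in KO replicate 1, against 1349 and 1641 in the other KO libraries. All 10 muscle markers had fold changes below 0, with a median of −0.52. In limma 0 of them were at an unadjusted p of 0.05, and the groups overlapped in each. Myogenic precursor markers summed to 7.11 to 9.04 FPKM in WT, against 1.31, 7.02 and 6.59 in the KO libraries. The highest KO sum was only just below the lowest WT sum, and 4 of the 9 genes were above the filter on low values. These 4 had fold changes below 0, and 2 of them did not overlap between the groups. Among all tested genes 11.4% were lower without overlap. Macrophage markers summed to 124 to 182 FPKM in WT and 170 to 233 in KO. All 10 had fold changes above 0, with a median of 0.36. In limma 0 of them passed, and 4 were at an unadjusted p of 0.05 without overlap between the groups: Cd163, Itgam, C1qb and C1qa. Among all tested genes 10.6% were higher at that p, and 13.6% were higher without overlap. Erythroid markers summed to 2974 to 11883 and 2640 to 3332, with WT replicate 3 the highest. Endothelial markers summed to 601 to 824 and 623 to 680 FPKM, Schwann cell and neuronal markers to 27.4 to 37.3 and 28.8 to 34.8, and epidermal markers to 5.33 to 7.01 and 4.5 to 7.13. No listed marker was at 0 in all 6 libraries, and Krt1, Krt5 and Krt14 were listed at 0 in each WT library. Without KO replicate 1, the library low in muscle markers, Ccnd1 had a log2 fold change of −1.07 and Ccnd2 of −1.04, and neither passed (limma, adjusted p 0.053 and 0.0734). The part of the marker differences in the results, muscle included, was not tested.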

How the data were processed

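The deposited table holds FPKM values per gene, per the file headers, with 2 decimals. The submitters' processing notes name mm10, HISAT2 2.0.4, Bowtie2 2.2.5 and DESeq2, without their roles; the counting tool, strand handling and filters are not given in the sources used here. All 6 value columns were used. Here the values were transformed as log2(FPKM + 1), and the 13331 genes averaging 0.5 FPKM or more were compared between KO and WT with limma 3.58.1 in R 4.3.3 (eBayes with a trend, no covariates). P-values were Benjamini-Hochberg adjusted over all tested genes, with a threshold of 0.05. Sums and shares within a library were compared with exact two-sided permutation tests, adjusted over 5. The fit was run on simulated data with changes larger than any fold change of the genes described here, so calls at their size were not tested. Depth was estimated from whole-read steps in low FPKM values of genes with 1 transcript of 500 to 1300 nt (length less 50 nt), where 75.5% to 81.2% of the 496 to 546 values in a library came within 0.2 of whole reads. Intervals of 95% are limma's. Transcripts came from GENCODE vM21, and gene positions and promoters from RefSeq GRCm38.p6, the build of mm10.

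Members and lists were chosen with earlier results of these data known. Named are the 10 genes, Fstl1, the sex-linked genes, and of each wider list the genes past the threshold or otherwise the 3 with the smallest p; relatives, overlapping genes, single markers and those next by p-value are named beyond this rule, after their values were seen. Alternatives were a pseudocount of 0.1, no filter, a filter at 2 FPKM, median-of-ratios, quantile and common-sum scaling, eBayes without trend or robust, the replicate block, and leaving out each library. Figures were drawn with matplotlib 3.10.9.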

Additional observations from a re-analysis of the deposited data

How the results depend on the processing

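All 10 genes and Fstl1 kept the sign of their fold change in all 15 alternatives. Ccnd1 passed the threshold in 10 of 15 and Ccnd2 in 7 of 15 (limma); none of the other 8 genes passed in any. With no filter on low values 35 genes passed in place of 295, and 0 of the 10 (6 at an unadjusted p of 0.05), with adjusted p of 0.0707 for Ccnd1 and 0.107 for Ccnd2. Fstl1, the targeted gene, also missed the threshold without the filter (limma, adjusted p 0.0606). With rescaling to a common sum 191 passed, and 1 of the 10, Ccnd1 (Ccnd2 adjusted p 0.0659). Leaving out 1 library gave 34 (without WT replicate 3) to 444 genes (without WT replicate 1), and 0 to 1 of the 10, with 4 to 8 at an unadjusted p of 0.05. The 7 genes of the wider lists past the threshold kept their sign in all 15 alternatives, chosen for them after seeing the data, and lost the threshold in 2 (Spry4) to 9 (Trp53inp1) of them. The KO mean minus the WT mean of the Cdk6 share in the pair was 0.113 percentage points with all libraries. With 1 library left out this difference ran from −0.475 (without WT replicate 3) to 0.565 percentage points (without WT replicate 1). It changed sign without WT replicate 3 and also without KO replicate 1 (−0.0364). The cause was not tested. The numbers 1 to 3 were not taken to pair the libraries: deviations of same-numbered libraries correlated at 0.0681, 0.0433 and 0.0433, although each library correlated best with its own number. With the replicate block 167 genes passed, 135 of them among the 295, among them Ccnd1 and Ccnd2; E2f1, Sesn1, Phlda3, Trp53inp1 and Axin2 were lost with it (limma, adjusted p 0.058 to 0.0738). With 3 libraries a group and an estimated depth of 13850000 to 15000000 reads, genes such as Ccne1 rest on few reads.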
